A study of Mus musculus with 11 samples.

Results

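The genes described are 9 long noncoding RNA (lncRNA) genes, out of 53801 genes in each table. Malat1, Neat1, Miat and Pantr1 are lncRNA genes without snoRNA genes inside them, and Gas5, Snhg1, Snhg12, Zfas1 and Epb41l4aos are snoRNA host genes, 5 in number. They were chosen by name and function and matched to the tables by gene identifier, and all 9 were found and passed the filter on low counts in every fit. The libraries, 11 in all, came from primary neural stem cells (NSCs) of the mouse hippocampus, cultured for 7 days. Proliferation medium held EGF and bFGF, which keep NSCs in division. Differentiation medium lacked both and had more B27 supplement. In each medium, cells received 4HBP at 1 µM or the ethanol vehicle (EtOH), which gave 3 libraries with 4HBP and 3 with EtOH in proliferation medium, and 3 with 4HBP and 2 with EtOH in differentiation medium. The labels call the compound 4-hydroxybenzoic acid, whereas the study calls it 4-hydroxybenzophenone. No source used here says whether replicates were separate cultures, so p-values measure the spread between these libraries, which may be technical.

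Most lncRNAs of this kind are made, spliced and given a poly(A) tail like messenger RNAs, but they encode no known protein. Malat1 is held in nuclear speckles, the stores of splicing factors, and its mature end is cut by RNase P and closed by a triple helix built on an A-rich stretch instead of a poly(A) tail. Neat1 is the scaffold of paraspeckles, nuclear bodies that form on its long transcript. Miat, also called Gomafu, is a nuclear RNA of neural cells that binds splicing factors, and Pantr1 lies beside the gene of the neural transcription factor Pou3f3. Host genes carry snoRNAs, the guides of ribosomal RNA modification, in their introns, and the spliced exons are a by-product. Several of these spliced RNAs start with a tract of pyrimidines (C and T), as the messenger RNAs of ribosomal proteins do. In the cytoplasm they are bound by ribosomes, meet stop codons early and are removed by nonsense-mediated decay, so that their level is known to depend on translation.

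The start of a gene shows whether such a tract is present, so the 40 bases around annotated starts are given, from RefSeq's windows on GRCm38, 5′ to 3′ on the strand of the gene. A tract was defined as a C followed by at least 4 bases that are C or T, starting no further than 5 bases from the annotated start on either side, on the strand of the gene only, and it is in capitals.
Gas5, chr1:161035146-161035185, plus strand: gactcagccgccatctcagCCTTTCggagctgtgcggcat
Snhg12, chr4:132308658-132308697, plus strand: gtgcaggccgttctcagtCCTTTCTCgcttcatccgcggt
Miat, chr5:112228929-112228968, minus strand: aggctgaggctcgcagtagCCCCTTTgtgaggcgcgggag
Snhg1, chr19:8723467-8723506, plus strand, without such a tract: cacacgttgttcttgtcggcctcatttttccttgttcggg
Zfas1, chr2:167062914-167062953, plus strand, without such a tract: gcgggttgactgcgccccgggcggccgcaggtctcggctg
Of the 9 genes, 6 had a RefSeq window that could be used, and the Gas5 sequence shown belongs to one of its starts. Over the host genes' windows, 2 of 5 held a tract, as did 18.3% of the 32851 windows of all genes and 9 of 36 windows of protein-coding host genes. These matches describe letters at annotated starts and were not tied to transcripts in these cells.

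Malat1 needs a second sequence, because the libraries were made by poly(A) selection and its mature end is not a poly(A) tail. In its transcript of 6983 bases (GENCODE vM21, GRCm38), the window of 20 bases with the most A ends 290 bases before the annotated 3′ end. It holds 17 A, with a longest run of 12, and is in capitals below, with flanks in lower case.
Malat1, chr19:5795975-5796004, minus strand: gctttAAAAAAAAAAAAGCAAAAGAcgctg
How far such a stretch took part in the capture of Malat1 was not tested.

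The genes lie at chr19:5795690-5802672 (Malat1, minus strand), chr19:5824708-5845478 (Neat1, minus), chr5:112213228-112229395 (Miat, minus), chr1:42590782-42694842 (Pantr1, minus), chr1:161034422-161038539 (Gas5, plus), chr19:8723475-8726443 (Snhg1, plus), chr4:132308623-132311024 (Snhg12, plus), chr2:167062934-167065862 (Zfas1, plus) and on the plus strand of chromosome 18 (Epb41l4aos). Inside the hosts, the annotation has 10 snoRNA entries in Gas5, 8 in Snhg1, 5 in Snhg12, 3 in Zfas1 and 1 in Epb41l4aos. These 27 entries received 6.5 counts in all 11 libraries together, so the data describe the polyadenylated exons of the hosts and not the snoRNAs. On the other strand, Gas5 overlaps Zbtb37 and Zfas1 overlaps Znfx1. The libraries were stranded, but whether the counting used the strand is not given in the sources used here, so these pairs may share fragments.

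The depth of the libraries ran from 20822921 to 23438463 expected counts. A level of 3 counts, taken as the floor of detection for counting error only, equals 0.128 to 0.144 CPM, that is, counts scaled to the library size. The lowest value of any of the 9 genes was 2.29 CPM, above that floor. The genes took 0.0925% to 0.103% of the counts in differentiation medium and 0.157% to 0.170% with EtOH in proliferation medium. With 4HBP in proliferation medium they took 0.138%, 0.142% and 0.242% in replicates 1, 2 and 3. Replicate 3 of that group also stood apart over all genes, with a mean chi-square per gene of 25.6 and 23.0 against replicates 1 and 2, which differed from each other by 5.62. The log2 fold changes that rest on it most are therefore given with and without it, whereas levels and the likeness of patterns are given only with it. Neural stem cell markers were all detected, 12 of 12, with a summed level of 5055 to 6229 CPM in proliferation medium and of 2017 to 2057 CPM in differentiation medium. Microglia markers summed to at most 3.90 CPM. Endothelial and mural markers summed to 8.77 to 15.5 CPM in proliferation medium and to 30.4 to 34.7 CPM in differentiation medium. In differentiation medium Pdgfrb was the highest of them, at a mean of 27.9 CPM with 4HBP and 28.4 CPM with EtOH. Within that list, Cldn5 and Cdh5 were at 0 in all libraries.

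Levels of different genes can be compared only per length, so they are given in TPM, the measure of RSEM that is scaled by length and depth. With EtOH in proliferation medium, Malat1 was the highest of the 9 genes at 700 ± 14.6 TPM (SD, n = 3), which placed it 124th among all genes. Gas5 followed at 331 ± 11.3 TPM and Pantr1 at 165 ± 28.3 TPM. Lower still were Snhg12 at 59.5 ± 3.18 TPM, Snhg1 at 49.5 ± 5.599 TPM, Epb41l4aos at 31.5 ± 2.12 TPM and Zfas1 at 23.5 ± 3.75 TPM. Miat, at 13.97 ± 2.99 TPM, and Neat1, at 10.9 ± 3.86 TPM, were the lowest, and their libraries overlapped, while all other neighbours in this order were apart. Although Miat had 85.6 CPM and Snhg12 11.3 CPM in this group, Miat was the lower of the pair per length, because its transcripts are long.

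The order was not the same in differentiation medium. There Gas5 was the highest, at 344 ± 2.37 TPM with EtOH (n = 2) and 320 ± 12.6 TPM with 4HBP (n = 3), above Malat1 at 242 ± 7.65 and 248 ± 27.6 TPM, and the libraries of both genes were apart in each group. TPM divides by the mean length of a gene's transcripts, weighted by their estimated shares. For Malat1 that length was 1.64 times as long in differentiation medium with EtOH, and 1.69 times with 4HBP. Its part in the order of Gas5 and Malat1 was not tested. Below Gas5 and Malat1 came Pantr1, at 120.1 ± 0.714 TPM with EtOH. Next were Snhg1 at 56.1 ± 9.64 TPM and Zfas1 at 39.0 ± 0.834 TPM. Snhg12, at 34.8 ± 2.76 TPM, Miat, at 32.7 ± 2.87 TPM, and Neat1, at 28.3 ± 5.01 TPM, overlapped from neighbour to neighbour, and Epb41l4aos was the lowest at 19.3 ± 2.52 TPM. With 4HBP in proliferation medium the order of neighbours was less clear, since Malat1 and Gas5 overlapped, as did Pantr1, Snhg12 and Snhg1 in turn.

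**Figure D1:**
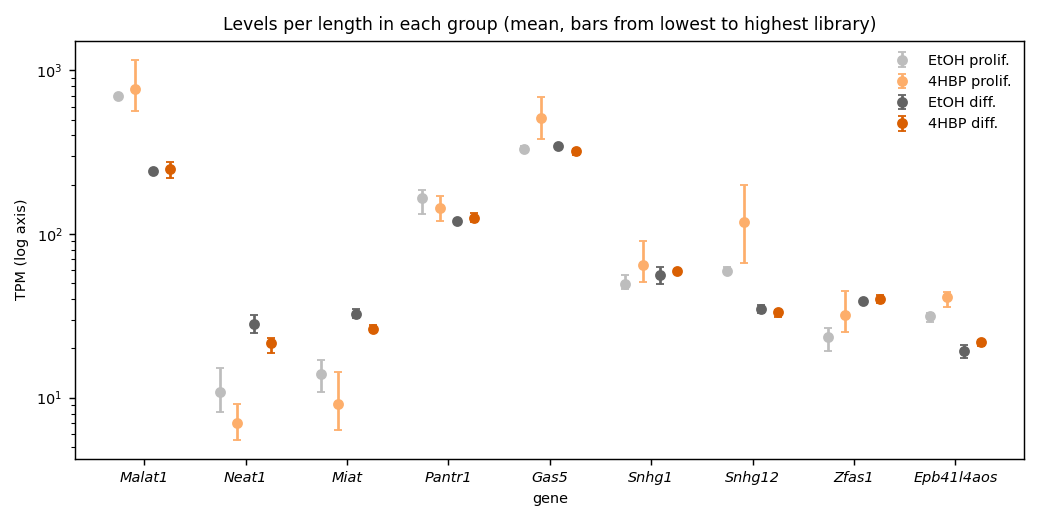
Level per length of the 9 genes in the 4 groups, in TPM on a log axis. Points are group means and bars run from the lowest to the highest library (n = 3, 3, 2 and 3). Malat1 lies at 700 TPM with EtOH in proliferation medium and at 242 TPM in differentiation medium, below Gas5 at 344 TPM. TPM divides by a weighted transcript length, which for Malat1 was longer in differentiation medium.

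The first comparison asks what 4HBP did in proliferation medium. Gas5 was 1.45-fold higher with 4HBP, and it was the only one of the 9 genes called (adjusted p under 0.05), that is 1 of 9 where 7.43% of all 14449 genes tested were called and 3.74% were called higher. The other host genes also had positive log2 fold changes, which were not called in this fit. Miat and Neat1 had negative ones of about -0.7, which were not called by edgeR with all libraries and the filter on low counts. Both were called without 4HBP replicate 3, and with all libraries by DESeq2 (adjusted p = 0.00676 for Miat and 0.0249 for Neat1), without the filter (edgeR adjusted p = 0.00708 and 0.0242) and in the fit of all 11 libraries (edgeR adjusted p = 0.0192 and 0.0434), but not with limma (0.252 and 0.317).

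Gas5, a snoRNA host whose spliced RNA is known for its dependence on growth and translation, reached 144, 160.2 and 195 CPM with 4HBP, in the order of replicates 1, 2 and 3. The EtOH libraries had 115, 113 and 117 CPM. Every 4HBP library was above every EtOH library, and replicate 3 was the highest. The log2 fold change was 0.53 (standard error, SE, 0.11, edgeR adjusted p = 0.0226). It lay between 0.41 and 0.63 when libraries were left out 1 at a time, and the call was lost without 4HBP replicate 2 (edgeR adjusted p = 0.0537), EtOH replicate 1 (0.0968) or EtOH replicate 2 (0.104). It was also lost with limma (adjusted p = 0.105). Without 4HBP replicate 3 it was 0.41 (edgeR adjusted p = 0.00814).

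Snhg12, the host of Snora44, Snora61 and Snord99 among others, was at 12.9, 15.9 and 34.5 CPM with 4HBP. With EtOH it was at 11.3, 10.2 and 12.6 CPM. The groups did not overlap, but replicate 3 was 2.40 times the mean of the other 4HBP libraries, and the spread with 4HBP was wide. The log2 fold change of 0.90 (SE 0.32) was not called (edgeR adjusted p = 0.124). Without replicate 3 it was 0.35 (edgeR adjusted p = 0.154). With all libraries, Snhg12 was called without the filter on low counts (edgeR adjusted p = 0.0217) and in the fit of all 11 libraries (0.0444).

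Epb41l4aos, a short lncRNA that lies beside Epb41l4a, was at 6.22, 7.496 and 7.07 CPM with 4HBP and at 5.86, 4.93 and 5.65 CPM with EtOH. The groups were apart here too, and replicate 3 was not the highest. Its log2 fold change was 0.34 (SE 0.15, edgeR adjusted p = 0.198). Zfas1, the host of Snord12, was at 10.5, 10.3 and 16.95 CPM with 4HBP and at 10.7, 8.51 and 9.11 CPM with EtOH. Only replicate 3 lay above the EtOH libraries, and the log2 fold change of 0.42 (SE 0.20, edgeR adjusted p = 0.238) was 0.15 without it. Snhg1, the host of Snord22, was at 23.8, 23.2 and 32.0 CPM with 4HBP and at 20.7, 19.2 and 26.1 CPM with EtOH. Its groups overlapped, with a log2 fold change of 0.26 (SE 0.16, edgeR adjusted p = 0.347), which was 0.10 without replicate 3 (edgeR adjusted p = 0.685).

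Taking the 5 hosts as a group, all 5 log2 fold changes were above 0, where 50.2% of all genes tested had one above 0, and their median was 0.42 against 0.0014 over all genes. The hosts were measured in the same libraries, so their 5 signs are not separate observations. Of the 9 genes, 3 (Gas5, Snhg12 and Epb41l4aos) were higher in every 4HBP library than in every EtOH library, as were 16.1% of all genes. Without replicate 3, the median of the hosts was 0.33, and Gas5 was the one host called.

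Malat1 was at 1137, 1136 and 1946 CPM with 4HBP and at 1369.7, 1428 and 1320.1 CPM with EtOH. Replicates 1 and 2 lay below all EtOH libraries and replicate 3 above all of them. The log2 fold change was therefore near 0, at 0.04 (SE 0.19, edgeR adjusted p = 0.936), and it turned to -0.27 without replicate 3 (edgeR adjusted p = 0.0443). The direction of the difference in Malat1 thus depended on 1 library.

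Miat was at 43.4, 44.3 and 70.2 CPM with 4HBP and at 81.4, 108 and 67.7 CPM with EtOH. Replicate 3 with 4HBP lay above EtOH replicate 3, and the other 4HBP libraries lay below all EtOH libraries. The log2 fold change was -0.70 (SE 0.21, edgeR adjusted p = 0.0755), and -0.96 without replicate 3 (edgeR adjusted p = 0.00836), and it lay between -0.96 and -0.50 with each library left out in turn. Neat1 was at 15.3, 12.5 and 20.1 CPM with 4HBP and at 19.4, 22.6 and 36.6 CPM with EtOH. Its groups overlapped only through 4HBP replicate 3 and EtOH replicate 1. The log2 fold change was -0.71 (SE 0.25, edgeR adjusted p = 0.113), and -0.91 without 4HBP replicate 3 (edgeR adjusted p = 0.0410). Without EtOH replicate 3 it was -0.39 (edgeR adjusted p = 0.271). Pantr1 was at 36.1, 35.5 and 39.6 CPM with 4HBP and at 39.2, 44.2 and 34.1 CPM with EtOH, with a log2 fold change of -0.08 (SE 0.10, edgeR adjusted p = 0.699).

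The pattern of replicate 3 ran through the genes. It was the highest 4HBP library for 8 of 9 of them, all but Epb41l4aos, where 39.7% of all genes tested were highest in it. The ratio of replicate 3 to the mean of replicates 1 and 2 was 2.40 for Snhg12, 1.71 for Malat1, 1.63 for Zfas1 and 1.60 for Miat. It was 1.28 for Gas5 and 1.03 for Epb41l4aos. Without this library, 4 of the 9 genes were called, Gas5 higher and Malat1, Miat and Neat1 lower, where 9.75% of all genes were called.

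**Figure D2:**
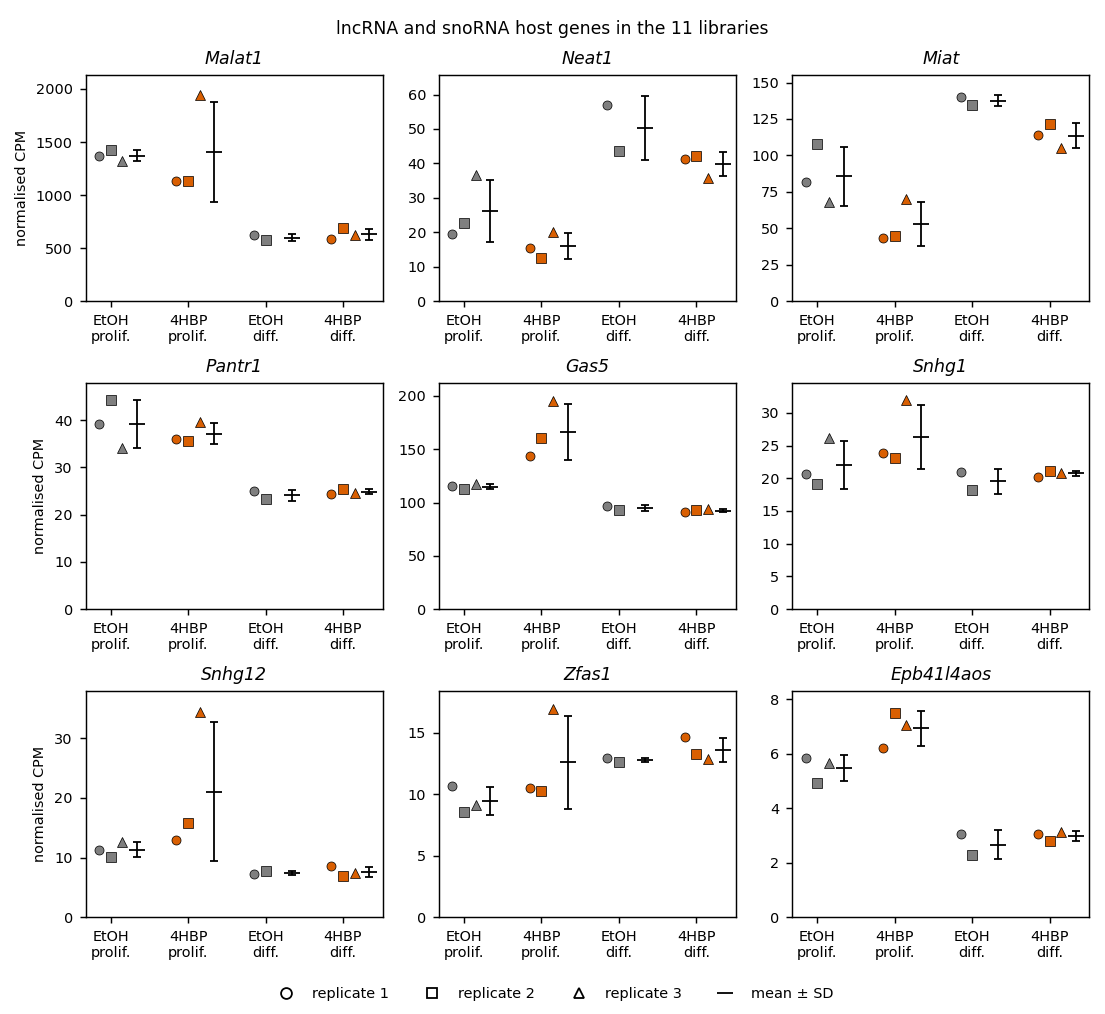
Normalised CPM of each gene in the 11 libraries, with 1 panel a gene and axes from 0. Symbols are replicates, and bars beside them give the mean ± SD. Gas5 lies at 144 to 195 CPM with 4HBP in proliferation medium, above the EtOH libraries at 113 to 117 CPM, and 4HBP replicate 3 is the highest of its group in 8 of 9 panels.

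Astrocyte markers were lower with 4HBP in proliferation medium. They (8 of 8 detected) summed to 6600.1 to 7188 CPM with 4HBP and to 8435 to 9566 CPM with EtOH, and 4 of the 8 were called lower. Oligodendrocyte markers (9 of 9 detected) summed to 2398 to 3885 CPM with 4HBP and to 3700 to 4462 CPM with EtOH, so that the ranges overlapped, with a median log2 fold change of -0.33. The part of these markers in the values of Miat, Neat1 and Malat1 was not tested. In bulk RNA, fewer cells that make a transcript and less of it in each cell cannot be told apart.

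In differentiation medium, the same question gave smaller differences. Miat was 1.22-fold lower with 4HBP and was the one gene of 9 called, where 2.55% of 15484 genes were called and 1.29% were called lower. It was at 114, 122 and 105 CPM with 4HBP and at 140.3 and 135 CPM with EtOH. All 4HBP libraries were below both EtOH libraries, as they were for 2 of the 9 genes and for 15.5% of all genes. The log2 fold change was -0.28 (SE 0.05, edgeR adjusted p = 0.00945), between -0.34 and -0.23 with single libraries left out. The call was lost without EtOH replicate 1 (edgeR adjusted p = 0.189) or EtOH replicate 2 (0.0540), with limma (0.376), and when all 11 libraries shared one estimate of the spread (edgeR adjusted p = 1).

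Neat1 was at 41.2, 42.2 and 35.7 CPM with 4HBP and at 57.0 and 43.7 CPM with EtOH. The groups were apart, by little, since the lower EtOH library lay close to the 4HBP libraries. Its log2 fold change was -0.35 (SE 0.09, edgeR adjusted p = 0.0569). It was -0.14 without EtOH replicate 1, and -0.53 without EtOH replicate 2, where it was called (edgeR adjusted p = 0.00950).

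The other 7 genes had overlapping groups. Gas5, which was higher with 4HBP in proliferation medium, was at 90.9, 92.8 and 93.5 CPM with 4HBP and at 96.7 and 93.2 CPM with EtOH, a log2 fold change of -0.05 (SE 0.04, edgeR adjusted p = 0.635). Malat1 was at 585, 686 and 623 CPM with 4HBP and at 623 and 574 CPM with EtOH, a log2 fold change of 0.07 (SE 0.05, edgeR adjusted p = 0.556). Among the hosts, Snhg12 had a log2 fold change of 0.02, Snhg1 of 0.08, Zfas1 of 0.08 and Epb41l4aos of 0.16, and Pantr1 had one of 0.04. None of these was called.

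**Figure D3:**
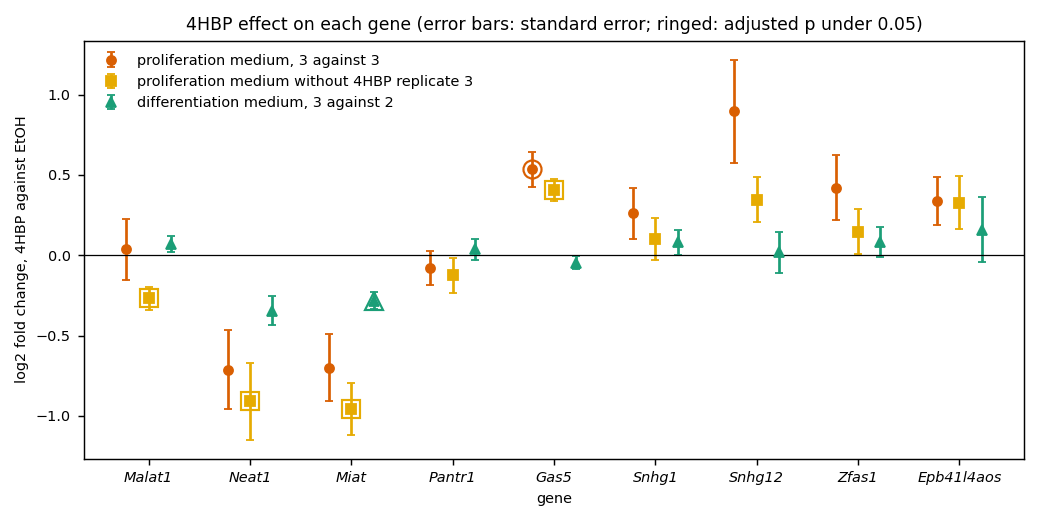
Log2 fold change of each gene with 4HBP against EtOH, with bars of 1 standard error. Circles are proliferation medium with all libraries, squares the same without 4HBP replicate 3, and triangles differentiation medium, and a ring marks an edgeR adjusted p under 0.05. Gas5 is ringed at 0.53 and 0.41 in proliferation medium and not at -0.05 in differentiation medium, and Miat is ringed at -0.96 and -0.28.

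Whether 4HBP acted differently in the media was tested as the difference between its effects, in a fit of all 11 libraries. Of the 9 genes, Gas5 alone was called, with a log2 fold change larger by 0.57 in proliferation medium (SE 0.13, edgeR adjusted p = 0.0285). That is 1 of 9, where 4.49% of 15920 genes were called. With single libraries left out, the difference lay between 0.45 and 0.67 and was called in 4 of 11 fits. The call was lost without EtOH replicate 1 or 2 of proliferation medium or any one library of differentiation medium, with adjusted p between 0.0648 and 0.128, and with limma (0.124). For Snhg12 the difference was 0.87 with an SE of 0.44 (edgeR adjusted p = 0.290), and 0.32 without 4HBP replicate 3 of proliferation medium (edgeR adjusted p = 0.358). With all libraries and no filter on low counts, that difference was called (edgeR adjusted p = 5.7e-04). For Miat it was -0.42 with an SE of 0.27 (edgeR adjusted p = 0.410). It was -0.68 without that library (edgeR adjusted p = 0.0532), and was called without the filter on low counts (edgeR adjusted p = 0.00705). For Neat1 it was -0.37 with an SE of 0.31 (edgeR adjusted p = 0.560), between -0.58 and -0.051 with each library left out in turn, the last without EtOH replicate 3 of proliferation medium. Malat1 was at -0.04 (edgeR adjusted p = 0.951), and was called at -0.34 without 4HBP replicate 3 of proliferation medium (edgeR adjusted p = 0.0417).

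The media themselves parted the genes more than 4HBP did. With EtOH, 6 of 9 genes were called between differentiation and proliferation medium, where 61.4% of 15920 genes were called, so the share was near that of all genes. Malat1, Pantr1, Epb41l4aos and Gas5 (4 of 9) were called lower in differentiation medium, as were 30.6% of all genes, and Neat1 and Miat (2 of 9) were called higher, as were 30.8%. The libraries of the media did not overlap for 8 of 9 genes, all but Snhg1, and for 76.4% of all genes. Malat1 fell to 623 and 574 CPM, a log2 fold change of -1.20 (SE 0.19, edgeR adjusted p = 1.2e-04). Epb41l4aos fell to 3.04 and 2.29 CPM, a log2 fold change of -1.04 (SE 0.18, edgeR adjusted p = 2.3e-04). Pantr1 fell to 24.9 and 23.3 CPM, a log2 fold change of -0.70 (SE 0.10, edgeR adjusted p = 4.8e-05). In each case both differentiation libraries were below all EtOH libraries of proliferation medium.

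Neat1 rose, with a log2 fold change of 0.94 (SE 0.23, edgeR adjusted p = 0.00286), and Miat rose by 0.68 (SE 0.19, edgeR adjusted p = 0.00807). Both are nuclear RNAs, as Malat1 is, so the nuclear lncRNAs did not move in one direction. The hosts were divided as well. Gas5 was lower by CPM, with a log2 fold change of -0.28 (SE 0.10, edgeR adjusted p = 0.0264), and the call was lost without EtOH replicate 1 (0.0525) or 3 (0.0601) of proliferation medium or EtOH replicate 1 (0.0678) or 2 (0.129) of differentiation medium. Scaled by library totals, Gas5 had -0.19 (edgeR adjusted p = 0.159). By TPM, Gas5 was 1.04 times as high in differentiation medium, so its direction depended on the scale. Zfas1 had a log2 fold change of 0.44 (edgeR adjusted p = 0.0621, and 0.0416 scaled by library totals), Snhg12 of -0.60 (edgeR adjusted p = 0.133) and Snhg1 of -0.17 (edgeR adjusted p = 0.342), and none of them was called. Without the filter on low counts, Snhg12 (edgeR adjusted p = 1.8e-04) and Zfas1 (0.0126) were called. Both were also called with only the 5 EtOH libraries (edgeR adjusted p = 0.00438 and 0.0151). Snhg1 also differed in direction by TPM, at 1.13 times its level in proliferation medium.

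With 4HBP, a comparison that shares no library with the one above, 8 of 9 genes were called, where 67.2% of all genes were called. Of them 6 were lower and 2 higher, against 33.8% and 33.3% of all genes. The media did not overlap for the same 8 genes and for 71.5% of all genes. Snhg12 had a log2 fold change of -1.47 (SE 0.29, edgeR adjusted p = 5.1e-04), and it was -0.92 without 4HBP replicate 3 of proliferation medium. Gas5 had -0.85 (SE 0.09, edgeR adjusted p = 2.0e-06), and Snhg1 had -0.34 (SE 0.13, edgeR adjusted p = 0.0356). The call of Snhg1 was lost without 4HBP replicate 3 of proliferation medium (-0.19, edgeR adjusted p = 0.155), without any one of the 4HBP libraries of differentiation medium (0.0688 to 0.0921), and scaled by library totals (0.0732). Malat1 had -1.16, Epb41l4aos -1.21 and Pantr1 -0.58, while Neat1 had 1.31 and Miat 1.11. Without 4HBP replicate 3 of proliferation medium, Malat1 had -0.85, Gas5 -0.72, Neat1 1.51 and Miat 1.36, each still called. Zfas1 was not called, at 0.11 (SE 0.17, edgeR adjusted p = 0.5803), and was called at 0.38 without 4HBP replicate 3 (edgeR adjusted p = 0.00951).

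Cell type markers also parted the media. Oligodendrocyte markers summed to 8766 to 9117 CPM and astrocyte markers to 10285 to 10559 CPM in differentiation medium, above the proliferation libraries. Single astrocyte markers were divided, with 5 of 8 called higher and 3 lower with EtOH, and 5 higher and 2 lower with 4HBP. Of 11 neuron markers tested, 6 were called higher and 2 lower with EtOH, and 7 higher and 2 lower with 4HBP. Their sums overlapped, at 1151 to 1347 CPM in proliferation and 1239 to 1291 CPM in differentiation medium. Neural stem cell markers summed to less. Mitochondrial genes took 8.49% to 9.60% of the counts in proliferation medium and 5.76% to 6.24% in differentiation medium. Their part in the differences of the 9 genes was not tested.

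The tables also give each gene a length, the mean length of its transcripts weighted by their estimated shares, which tells which transcripts the fragments were assigned to. For Malat1 it was 2722, 2833 and 2541 bases with 4HBP and 2758, 2769 and 2655 bases with EtOH in proliferation medium. The differentiation libraries had 4783, 4483 and 4386 bases with 4HBP and 4582 and 4389 bases with EtOH. The media were apart by a wide margin, and the treatments overlapped within each. The mean was 1.67 times as long in differentiation medium, 4525 against 2713 bases (two-sided exact permutation test over 462 splits, p = 0.00216, the smallest they can give, adjusted p = 0.0134 over 12614 genes with more than 1 transcript). The relative change was larger than that of 99.3% of these genes. The annotated Malat1 transcripts are one of 6983 bases without introns and others of 485, 556 and 656 bases, and 1 transcript of the tables is not in vM21, so the shares of single transcripts cannot be read from the length alone.

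The length bears on the level, since TPM divides by it. Between media with EtOH, Malat1 was 2.29-fold lower by CPM and 2.89-fold lower by TPM. The mean fragment length was 194 to 205 bases in proliferation medium and 164 to 180 bases in differentiation medium, and its part in the assignment of fragments to transcripts was not tested.

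Snhg12 also had a larger length in differentiation medium, 517.7 to 596 bases, than in proliferation medium, 428 to 455 bases. The ratio of means was 1.26 (two-sided exact permutation test, p = 0.00216, adjusted p = 0.0134). Epb41l4aos had a mean of 409.9 bases in differentiation and 424 bases in proliferation medium, with overlapping libraries (two-sided exact permutation test, p = 0.0108, adjusted p = 0.0419). These 3 of 9 genes were called, where 27% of all genes with several transcripts were, and 2 of 9 had libraries apart, where 20.4% did. Neat1, whose annotated transcripts have 1030, 3004 and 20771 bases, had means of 3310.1 and 3276 bases (two-sided exact permutation test, p = 0.478, adjusted p = 0.659). Within a medium, the lengths of all 9 genes overlapped between 4HBP and EtOH, where 9.93% of genes were apart in proliferation and 18.8% in differentiation medium.

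**Figure D4:**
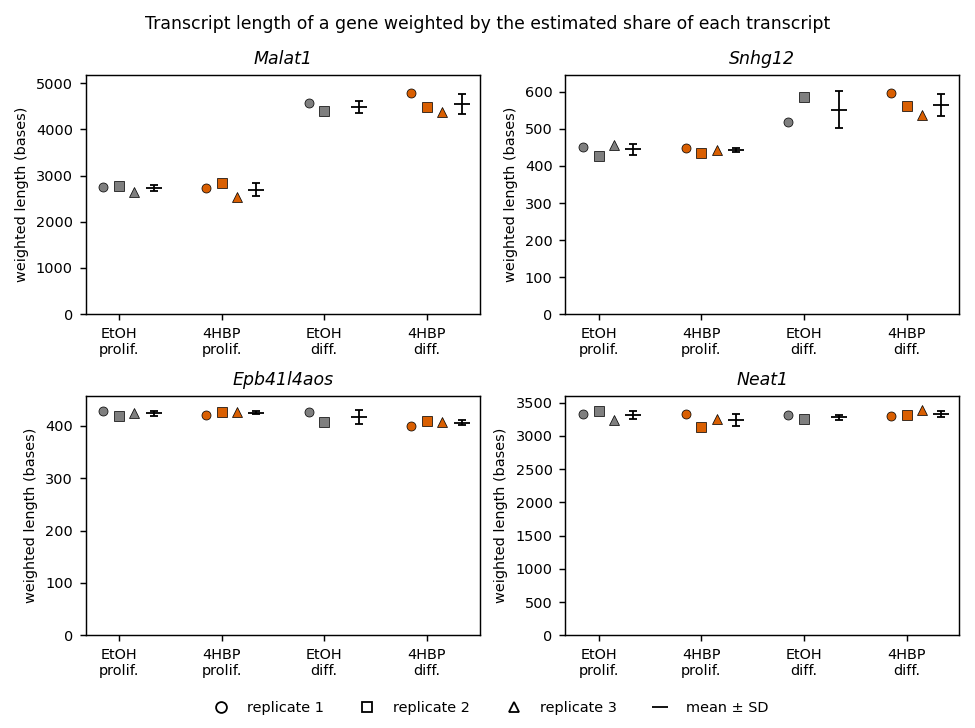
Weighted transcript length in bases of Malat1, Snhg12, Epb41l4aos and Neat1 in the 11 libraries, with the mean ± SD beside the replicates. Malat1 lies at 2541 to 2833 bases in proliferation medium and at 4386 to 4783 bases in differentiation medium, and the treatments overlap in both.

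Other genes of related function put the hosts in context, by counts from the same fits. Of the noncoding host genes besides the 5 described, 13 were tested and edgeR called 0 in proliferation medium, with 0 at an unadjusted p under 0.05 as well. Their median log2 fold change was 0.16, with 9 of 13 above 0. Of 48 protein-coding host genes, 3 rose with 4HBP there, Hspa9 (0.88), Hspa8 (0.56) and Wdr43 (0.40), and 0 fell, with a median of 0.05. These are 6.25% of the list, where 3.74% of all genes were called higher and 7.43% in either direction. The count ran from 0 (without EtOH replicate 1 or 2) to 6 (without 4HBP replicate 3) with each library left out in turn. Both Hspa genes encode chaperones. Of 20 genes for snoRNP proteins, which bind snoRNAs, 3 rose, Tcof1 (0.44), Naf1 (0.34) and Nop58 (0.45). The median of the list was 0.26 against 0.0014 over all genes. The 3 genes called are 15% of the list, where 3.74% of all genes were called higher. That count was 0 without 4HBP replicate 2, EtOH replicate 1 or EtOH replicate 2, 1 without 4HBP replicate 1, 6 without 4HBP replicate 3 and 7 without EtOH replicate 3. For 22 factors of nonsense-mediated decay, edgeR called 0 genes, with 5 at an unadjusted p under 0.05 and a median of 0.16, and it called 5 in the fit of 11 libraries. The list of ATF4 and integrated stress response genes, which serve the response to reduced translation, had 15 of 23 higher and 0 lower, with a median of 0.70, where 3.74% of all genes were called higher. The count was 7 without EtOH replicate 1, 9 without EtOH replicate 2 or 4HBP replicate 2, and 14 to 18 without any other library. Of other named lncRNA genes, 2 of 21 were called there, Mir9-3hg lower (-0.64) and H19 higher (0.76). In differentiation medium, 2 of 22 were called lower with 4HBP, Firre (-0.27) and Meg3 (-0.33), where 1.29% of all genes were. With single libraries left out, these counts ran from 0 to 3 in proliferation and from 0 to 2 in differentiation medium.

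Between media, the protein-coding hosts were mostly lower in differentiation medium, with 38 of 48 lower and 4 higher with EtOH, where 30.6% of all genes were lower and 30.8% higher. Genes of paraspeckle proteins, the partners of Neat1, had 18 of 24 lower and 1 higher in the same comparison, in which Neat1 itself rose. The mean weighted length of Neat1 was 3310.1 bases in differentiation and 3276 bases in proliferation medium. That is near its transcript of 3004 bases and far from the long one of 20771 bases. The rise is therefore not shown for the long transcript, on which paraspeckles form. Genes of nuclear speckles and splicing factors had 19 of 27 lower and 3 higher, and Malat1 was lower too. The same shares of all genes apply to these lists. With 4HBP in proliferation medium, 1 paraspeckle gene rose (Taf15, 0.41) and 1 speckle gene fell (Tra2a, -0.26). These are 4.17% and 3.70% of their lists, where 7.43% of all genes were called in either direction and 3.74% higher. In differentiation medium, 2 of 27 speckle genes fell with 4HBP, Clk1 (-0.25) and Son (-0.15). These are 7.41% of the list, where 1.29% of all genes were called lower. With single libraries left out, Clk1 was called in 4 of 5 fits and Son in 2 of 5, and the list count ran from 0 to 2. Of 24 paraspeckle genes, edgeR called 0 there, with 4 at an unadjusted p under 0.05.

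Genes that lie next to the 9 were examined in the same way, and 1 of 14 was called in proliferation medium, a share of 7.14% where 7.43% of all genes were called. Slc3a2, the neighbour of Snhg1 and a subunit of amino acid transporters, rose with 4HBP, to 483 ± 75.6 from 220.2 ± 30.2 CPM (SD over 3 libraries each), which is 1.13 on the log2 scale (SE 0.13, edgeR adjusted p = 0.00422). Slc3a2 is also counted above among the ATF4 and integrated stress response genes. Snhg1 lies between Slc3a2 and Wdr74, which had 0.45 (edgeR adjusted p = 0.0589). Zbtb37, which overlaps Gas5 on the other strand, had a log2 fold change of 0.24 (edgeR adjusted p = 0.337), and Znfx1, which overlaps Zfas1, had 0.20 (edgeR adjusted p = 0.242). Pou3f3, beside Pantr1, had 0.14 (edgeR adjusted p = 0.312), and Ltbp3, near Malat1 and Neat1, had -0.35 (edgeR adjusted p = 0.0575).

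The likeness of patterns was described by Pearson's r over the 11 libraries, after the mean of each medium was taken from the log2 CPM, with no test. All points share their libraries, depth and scaling, and 4HBP replicate 3 weighs on many of them. Gas5 was most like Aig1 (r = 0.996) and Ptpn14 (r = 0.996), Miat most like Afdn (r = 0.987) and Per3 (r = 0.982), and Snhg12 most like H3f3b (r = 0.977) and Nhlrc3 (r = 0.976). For Malat1, the most alike were Dnali1 (r = 0.951) and Ltk (r = 0.945), and for Neat1, Rnf19b (r = 0.956) and Cldn1 (r = 0.952). Zfas1 went with Gsdme (r = 0.957) and Cry1 (r = 0.953), Snhg1 with Gch1 (r = 0.954) and Dync1li1 (r = 0.942), Pantr1 with Gm47629 and Pgpep1 (r = 0.959 each), and Epb41l4aos with Ptges (r = 0.938) and Thap1 (r = 0.935). Among the 9 genes, Snhg12 and Zfas1 had r = 0.927 and Gas5 and Snhg12 had r = 0.894, whereas Gas5 and Miat had r = -0.467.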

How the data were processed

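RNA from 11 libraries was measured by stranded poly(A) sequencing. The authors trimmed reads with cutadapt and quantified them with RSEM 1.3.0 and Bowtie2 2.2.9 on mm10 (GRCm38) with GENCODE vM17. The authors deposited, per gene, expected counts (not normalized; 18.6% of the values above 0 are not whole) and weighted lengths. The TPM and FPKM values that the authors deposited were scaled by RSEM for length and depth, and FPKM was not used. Of the identifiers, 99.8% matched GENCODE vM21.

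Groups came from the sample labels. Expected counts were rounded, filtered (filterByExpr), TMM-normalized and tested with edgeR 4.0.16 (glmQLFit, glmQLFTest; R 4.3.3), within each medium for 4HBP and over all libraries for the media and the interaction, with Benjamini-Hochberg adjustment over all genes tested and calls under 0.05. The biological coefficient of variation was 0.117 over the proliferation and 0.0368 over the differentiation libraries. CPM values are TMM-scaled over all libraries. Lengths were compared by a two-sided exact permutation test. Its p-values were adjusted over all genes with several transcripts and not over the 9 genes, as first planned.

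Alternatives were library totals, DESeq2 1.42.0, limma 3.58.1 on log2(CPM+1), no filter, a replicate block, other sets of libraries, and each library left out. The study's own test was limma without a stated filter. All 9 genes were named, up to 4 genes of each list by adjusted p, all of their neighbours as far as needed, and the 2 most alike genes for each. The genes and lists were chosen with earlier results of these data known. The tests were checked on simulated counts, and no library was found to be deposited more than once.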

Additional observations from a re-analysis of the deposited data

Results flagged for a closer look

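Among the 9 genes and the 14 tested genes that lie next to them, the effect of 4HBP differed between the media for 2, by a test of the difference itself in the edgeR fit of 11 libraries. Of all genes, 4.49% were called in that test. For Gas5, the log2 fold change in proliferation medium exceeded that in differentiation medium by 0.57 (standard error 0.13, edgeR adjusted p = 0.0285), with 3 of 3 4HBP libraries above all EtOH libraries in proliferation medium and overlapping groups in differentiation medium. For Slc3a2, the neighbour of Snhg1, the difference was 1.25 (standard error 0.16, edgeR adjusted p = 0.00202), and it was called in 11 of 11 fits with single libraries left out, where Gas5 was called in 4 of 11. Slc3a2 is also on the list of ATF4 and integrated stress response genes, of which 11 of 23 were called in this test. The differences of 4 genes named among the host and snoRNP lists were also called, at 0.83 for Hspa9 (edgeR adjusted p = 0.0149), 0.47 for Hspa8 (edgeR adjusted p = 0.0249), 0.48 for Wdr43 (edgeR adjusted p = 0.0388) and 0.45 for Naf1 (edgeR adjusted p = 0.0204). These 4 are 3 of 48 protein-coding hosts (6.25%) and 1 of 20 snoRNP genes (5%), near the 4.49% of all genes called. All 4 had been named because they were called with 4HBP in proliferation medium, which uses some of the same libraries. With single libraries left out, Hspa9 was called in 9 of 11 fits, Hspa8 in 4, Wdr43 in 3 and Naf1 in 7. Further genes of the stress response list were called as well. Groups of 2 or 3 libraries are too small for a search for single outlying values.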

How the results depend on the processing

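In proliferation medium, 1 of the 9 genes was called with 4HBP. The count was 4 without a filter, 4 with all 11 libraries in one fit, 3 with DESeq2, 2 with a replicate block and 0 with limma, and 0 to 4 with single libraries left out (4 without 4HBP replicate 3, and 0 without 4HBP replicate 2, EtOH replicate 1 or EtOH replicate 2). In differentiation medium, 1 was called. There the count was 2 without a filter, 2 with a replicate block, 0 with limma, 0 with the study's limma thresholds, 0 with all 11 libraries in one fit, and 0 to 1 with single libraries left out (0 without EtOH replicate 1). For the difference between the media the count of 1 became 3 without a filter, 0 with limma, and 0 to 2 with single libraries left out. Counts between the media stayed within 1.5 times. Scaling by library totals moved the median of all genes to 0.11 between the media with EtOH, from 0.03, and the 6 called genes were then 3 higher and 3 lower, where they had been 2 and 4. Over the wider lists, the count in proliferation medium of 25 became 46 in the 11-library fit and 7 to 35 with single libraries left out. In differentiation medium the count of 7 became 11 with the block, 0 in the 11-library fit and 1 to 6 with single libraries left out, and for the difference between media 16 became 6 to 26.

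Under the alternatives to the edgeR fits, log2 fold changes of the 9 genes turned in direction where they had not been called with all libraries, and of these Malat1 without 4HBP replicate 3 was then called lower. With 4HBP in proliferation medium, Malat1 was at -0.014 with the replicate block and between -0.27 and 0.17 with single libraries left out, and Pantr1 between -0.17 and 0.018. In differentiation medium, the ranges were -0.012 to 0.088 for Pantr1, -0.018 to 0.19 for Snhg1, -0.075 to 0.086 for Snhg12 and -0.034 to 0.38 for Epb41l4aos. Zfas1 between media with 4HBP ranged from -0.0047 to 0.38. The difference of effects on Malat1 was 0.014 by library totals, 0.0023 with the block and -0.34 to 0.090 with single libraries left out, and that on Epb41l4aos was -0.047 to 0.36. On another scale, TPM, Gas5 turned although it was called lower by CPM, at 1.04 times as high in differentiation medium with EtOH. The causes were not tested. Summed TPM of the 9 genes rose when mitochondrially encoded genes were left out, to 1885 with EtOH in proliferation, 1038 with 4HBP in differentiation and 1059 with EtOH in differentiation medium, as the TPM of the rest is then scaled up.

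Replicate numbers did not pair the libraries, since deviations of equal numbers correlated between -0.0489 and 0.0141 over genes. With the replicate block, Neat1 was called in proliferation medium (-0.69, edgeR adjusted p = 0.0426) and in differentiation medium (-0.27, edgeR adjusted p = 0.00224). In differentiation medium, 4HBP replicate 3 has no EtOH library of the same number. The block fit there thus compared only replicates 1 and 2, which left little to estimate the spread from. Neat1 was at 41.2 CPM with 4HBP against 57.0 with EtOH in replicate 1, and at 42.2 against 43.7 in replicate 2.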
